A study of Homo sapiens with 4 samples.

Results

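Forkhead genes encode transcription factors that share the forkhead DNA-binding domain. They were picked from the PAR-CLIP table by name, as all identifiers made of FOX, 1 letter from A to S and a number. This gave 44 genes of 26490 in the table, against 39 HOX and 19 SOX genes, other families of transcription factors counted the same way. The question was which of these mRNAs were crosslinked to DHX36, a DEAH-box helicase that unwinds G-quadruplexes, 4-stranded folds that runs of guanines can form. PAR-CLIP labels RNA with 4-thiouridine, crosslinks it to bound protein with ultraviolet light of 365 nm and sequences the fragments that come down with the protein, whose crosslinked positions read as T-to-C conversions.

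Both PAR-CLIPs used HEK293, a human embryonic kidney cell line, with a stable transgene under a tetracycline-inducible promoter. The first line made FLAG/HA-tagged DHX36 isoform 2 (FH-DHX36). The second made tagged isoform 1 with the helicase-dead E335A change (FH-DHX36-E335A), so isoform and mutation differed together and their parts cannot be told apart. Both were induced with tetracycline (500 ng/ml for 15 h) before 5 min of crosslinking, and in both the cells kept their own DHX36. Each line had 2 replicate libraries, but the table holds 1 value per line. The spread between replicates is therefore unknown, no difference between the PAR-CLIPs was tested, and every interval given covers counting error only. The table totals 8752127 crosslinked reads for FH-DHX36-E335A and 2160413 for FH-DHX36, a ratio of 4.05, so that reads were scaled to 1000000 crosslinked reads of each PAR-CLIP (RPM) wherever the PAR-CLIPs are set side by side.

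Forkhead factors control organ formation in the embryo, and in adult cells they set metabolism, stress resistance, cell division and lineage. The FOXO factors leave the nucleus when AKT phosphorylates them under insulin and growth factor signalling. FOXK1 and FOXK2 bind widely in the genome together with chromatin repressors and the deubiquitinase BAP1, and FOXM1 drives the genes of mitosis. Many other members act in 1 organ or germ layer, such as FOXC1 in the eye and vessels or FOXD3 in the neural crest.

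In FH-DHX36-E335A, 26 of the 44 genes carried at least 1 cluster, a stretch of stacked reads bearing such conversions, or 59.1% (95% Wilson interval 44.4 to 72.3). Over the whole table the share was 34.5%, and over genes annotated as protein-coding it was 47.7%, which lies inside the interval of the forkhead genes. In FH-DHX36, 16 members carried a cluster, 36.4% (23.8 to 51.1), beside 22.4% of all genes and 31.0% of protein-coding genes. Against protein-coding genes, then, the family was not set apart in either PAR-CLIP at this number of members. All 16 also carried clusters in FH-DHX36-E335A. Of the 5930 genes of the whole table with clusters in FH-DHX36, 5669 did so too, which is 21.4% of all genes. The other 10 of the 26 members had clusters in FH-DHX36-E335A alone, as did 3462 of the 9131 genes bound there over the whole table. Counting only clusters in the 5′UTR, the coding sequence (CDS) or the 3′UTR, 24 members remained in FH-DHX36-E335A (32.2% of all genes) and 13 in FH-DHX36 (19.0% of all genes). The HOX genes had clusters in 29 and 20 of 39 members (74.4% and 51.3%), and the SOX genes in 8 and 2 of 19 (42.1% and 10.5%).

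The remaining 18 forkhead genes had no cluster in either PAR-CLIP. These were FOXA2, FOXB2, FOXC2, FOXD4, FOXE3, FOXF1, FOXH1, FOXI1, FOXI2, FOXJ1, FOXL1, FOXL2, FOXN1, FOXO6, FOXP3, FOXR1, FOXR2 and FOXS1. Several are known for 1 tissue that HEK293 cells do not model, such as FOXP3 in regulatory T cells, FOXN1 in thymic epithelium, FOXE3 in the lens and FOXJ1 in ciliated cells. Other members of restricted tissues did have clusters, such as FOXD3 of the neural crest and FOXN4 of retinal progenitors. The RNA abundance of the 18 genes without a cluster could not be recovered from the table, so a missing cluster and a missing mRNA cannot be told apart. FOXD4 and FOXO3 also have near-identical copies elsewhere in the genome (the FOXD4-like genes and FOXO3B), all listed at 0 clusters, and reads may have been split between copies.

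Guanine runs stand first here because DHX36 binds them in its known substrates. The reference transcripts of GENCODE release 44 on GRCh37 (hg19) were searched on the sense strand for at least 4 runs of at least 2 G, GGN(1-7)GGN(1-7)GGN(1-7)GG, in which N is any base, G included. The 3′UTRs of the 26 genes with clusters held 1.78 matches per kb, next to 1.70 over all annotated genes of the table. For each UTR that carried clusters in both PAR-CLIPs and held a match of at most 30 nt, 1 match is printed, and 1 is added for the 5′UTR of FOXO4, which had clusters in FH-DHX36-E335A alone. Matches with runs of at least 3 G were preferred, and among those of the same kind the one with most G was taken. Capitals mark the G runs, of at least 3 G for FOXK1, FOXN3, FOXO4 and FOXP4 and of at least 2 G for the others. A match describes letters of the annotation. The positions of the clusters were not used here, so no match is shown to be a crosslinked site.
FOXK1 3′UTR, chr7:4808228-4808257, plus strand: GGGaaggtGGGcaGGGtggaGGGcccaGGG
FOXK2 3′UTR, chr17:80562276-80562304, plus strand: GGtagtcatGGccagaaGGGGGGtGGGGG
FOXO1 3′UTR, chr13:41130088-41130107, minus strand: GGcagtgtGGccaGGGGtGG
FOXO3 5′UTR, chr6:108882288-108882315, plus strand: GGcGGcGGcGGcGGcgcccGGGagccGG
FOXO3 3′UTR, chr6:109003208-109003222, plus strand: GGGtGGGGGGataGG
FOXO4 5′UTR, chrX:70315923-70315946, plus strand: GGGGGagcGGGGcgtGGGGGaGGG
FOXO4 3′UTR, chrX:70322896-70322921, plus strand: GGGGccaGGGaaGGGactGGGaGGGG
FOXM1 5′UTR, chr12:2986102-2986125, minus strand: GGagctacGGcctaacGGcGGcGG
FOXM1 3′UTR, chr12:2967365-2967385, minus strand: GGtGGGtaGGatgacctGGGG
FOXC1 3′UTR, chr6:1613965-1613978, plus strand: GGGGGGGtGGGGGG
FOXD2 3′UTR, chr1:47905872-47905890, plus strand: GGagaGGtgaagcaGGGGG
FOXJ3 3′UTR, chr1:42643353-42643382, minus strand: GGtaaGGGctGGtgaGGttGGGGagaaaGG
FOXN3 3′UTR, chr14:89625199-89625224, minus strand: GGGGcaGGGGGGaGGGGGaaacGGGG
FOXP4 3′UTR, chr6:41569613-41569633, plus strand: GGGGagcaGGGGaGGGGaGGG

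The crosslinked reads of the family lay mostly in 3′UTRs. Of 196 clusters and 27231 reads in FH-DHX36-E335A, the 3′UTR held 19328 reads, 89.3% of the exonic ones (88.9 to 89.7), next to 71.9% for all genes. In FH-DHX36 the members had 65 clusters and 6427 reads, and the 3′UTR share was 86.1% (85.2 to 87.0), next to 51.4% for all genes. The FH-DHX36 value leaned on FOXK1 and was 70.2% without it. The CDS held 8.32% and 7.96% of the exonic reads of the members, where all genes had 22.9% and 38.0%. The 5′UTR held 2.40% and 5.90%, where all genes had 5.21% and 10.7%. The HOX genes had 3′UTR shares of 78.0% and 62.9% and the SOX genes of 83.7% and 72.1%.

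By member, 23 genes had a 3′UTR cluster in FH-DHX36-E335A and 11 in FH-DHX36. Of the 8889 protein-coding genes with a cluster in either PAR-CLIP, 6817 and 2966 did. More than 50% of the reads lay in the 3′UTR for 20 of 26 members in FH-DHX36-E335A and for 8 of 16 in FH-DHX36. No matching count over all genes is at hand, so this one describes the members only. CDS clusters were listed for 9 and 3 members, 5′UTR clusters for 3 and 2, and intron clusters for 4 and 6. Of those 8889 genes, 5649 and 2631 had CDS clusters, 1781 and 1046 5′UTR clusters, and 2072 and 1374 intron clusters. A further 8 members in FH-DHX36-E335A and 1 in FH-DHX36 had clusters outside these 4 categories, called other annotation here. These clusters held 4669 reads (17.1%) in FH-DHX36-E335A, of which FOXM1 had 2824, and 54 reads (0.840%) in FH-DHX36, all on FOXA1. Among the same 8889 protein-coding genes, 3872 and 1154 had clusters of other annotation, which held 20.4% and 16.0% of the reads.

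**Figure D1:**
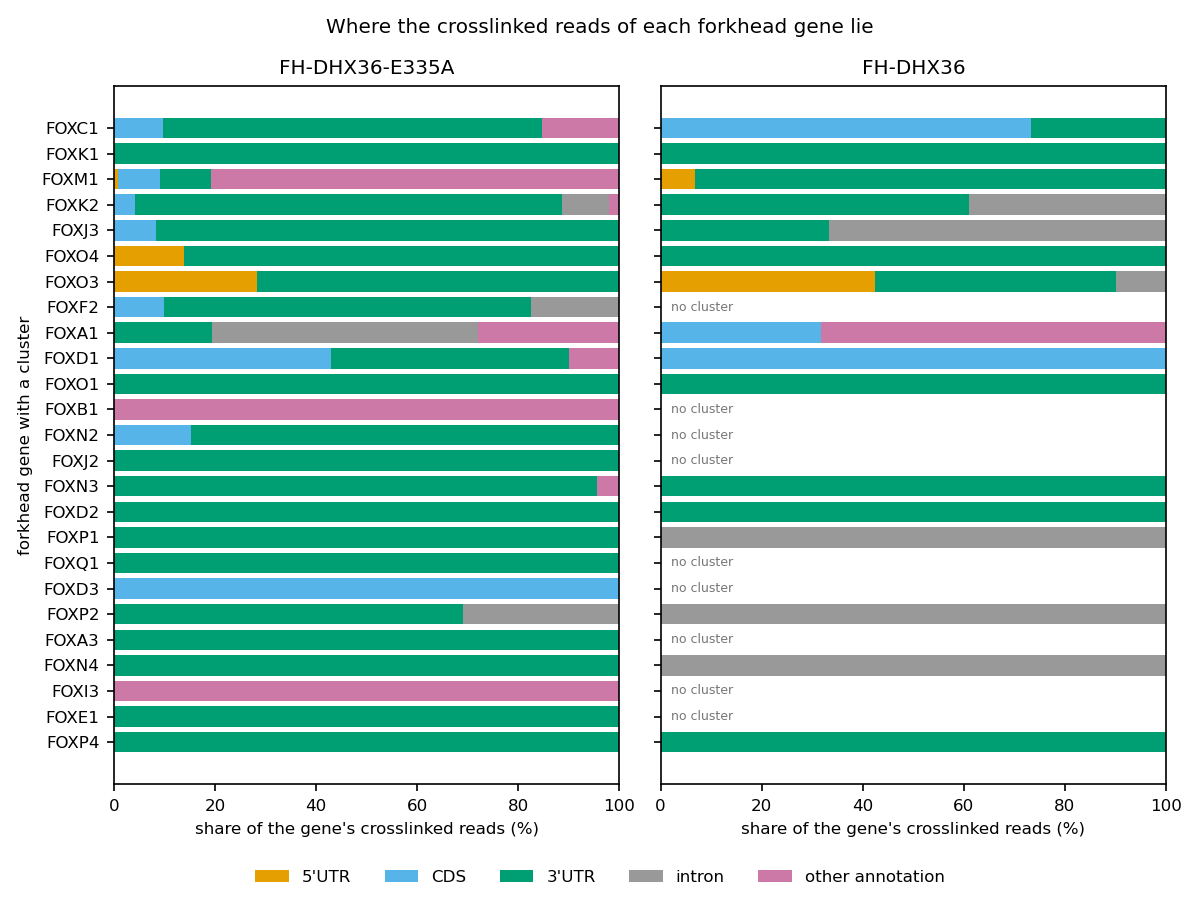
Share of each gene's crosslinked reads (x axis, percent) by annotation for 25 of the forkhead genes with a cluster (y axis, ordered by FH-DHX36-E335A reads), in FH-DHX36-E335A (left) and FH-DHX36 (right). The 3′UTR takes every read for 10 genes on the left and 6 on the right, while FOXM1 on the left is mostly other annotation. FOXP1 and FOXN4 change from 3′UTR on the left to intron on the right, and FOXP2 changes from 3′UTR and intron to intron alone.

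Each PAR-CLIP was concentrated on few members. The 3 genes with most reads, FOXC1, FOXK1 and FOXM1, held 49.6% of the family's reads in FH-DHX36-E335A, and the top 3 of FH-DHX36, FOXK1, FOXO3 and FOXO4, held 68.6%. The median member with a cluster had 518.5 reads (9 to 5412) in FH-DHX36-E335A and 160.5 (18 to 3142) in FH-DHX36, beside 326 and 121 for all genes with a cluster. Densities were taken as all reads of a gene, intron and other-annotation reads included, per kb of the spliced canonical transcript. The highest in FH-DHX36-E335A were those of FOXC1 (1359 reads per kb), FOXM1 (984), FOXK2 (466), FOXF2 (430), FOXJ3 (429) and FOXK1 (411). Other annotation made up 2824 of the 3494 FOXM1 reads and 825 of the 5412 FOXC1 reads. FOXK2 had 229 intron reads and FOXF2 184, so these values are not exonic densities. In FH-DHX36 the order was FOXK1 (281 reads per kb), FOXO4 (141), FOXM1 (109), FOXO3 (104) and FOXD1 (101). FOXC1, first in FH-DHX36-E335A, had 64.8 reads per kb there.

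NXPM, the score deposited with the reads, divides the scaled reads (RPM) by the RNA abundance of the gene in HEK293. The members had low abundance, with a recovered median of 1.84 (0.591 to 21.9) beside 5.75 over all genes with a cluster, in the unit of the authors' RNA-seq. Their median NXPM was 21.2 in FH-DHX36-E335A and 16.1 in FH-DHX36, where all genes with a cluster had 5.66 and 7.84. NXPM was above the median of all genes for 21 of 26 and 14 of 16 members. Abundance is the denominator of NXPM, and its part in this gap was not tested. NXPM passed 100 for FOXK1 and FOXO4 in FH-DHX36-E335A and for FOXK1, FOXO3 and FOXO4 in FH-DHX36.

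**Figure D2:**
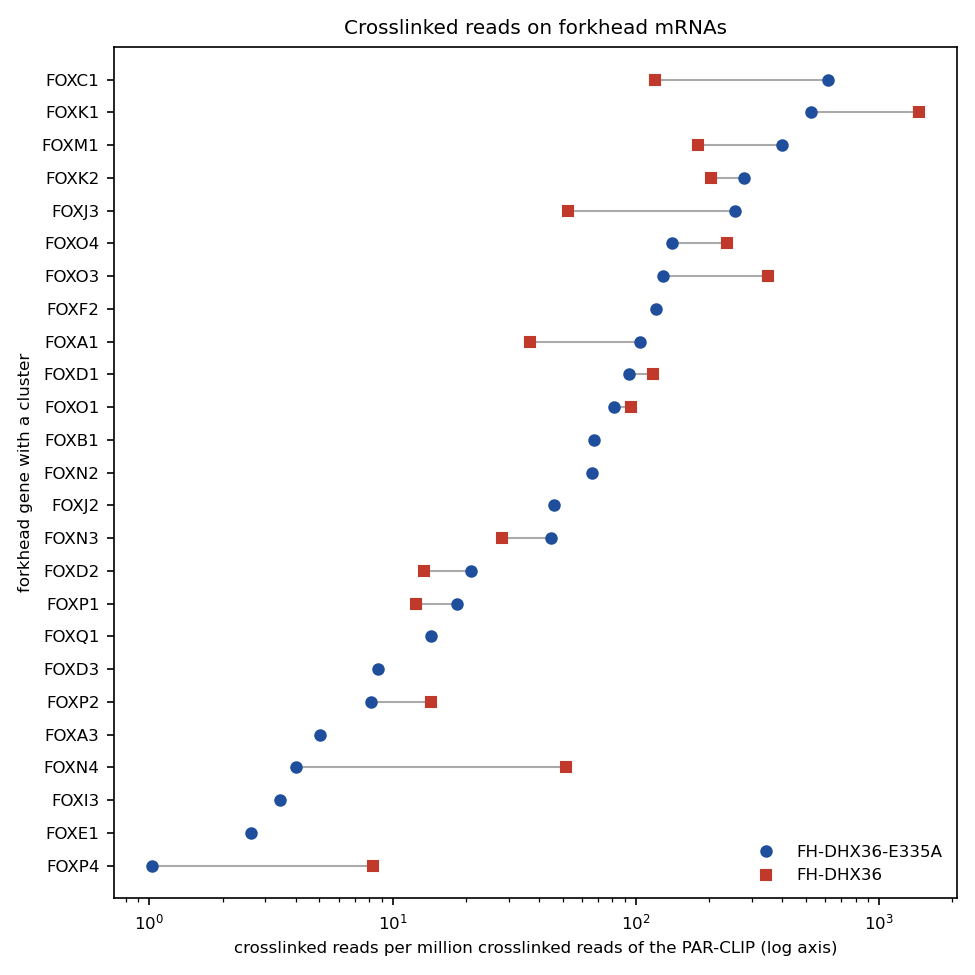
Crosslinked reads of each PAR-CLIP, scaled to its total (RPM, x axis, log scale), for 25 of the forkhead genes with a cluster (y axis), as circles for FH-DHX36-E335A and squares for FH-DHX36. Grey lines join the 16 genes with clusters in both, among which FOXC1 and FOXJ3 lie farthest to the FH-DHX36-E335A side and FOXN4 and FOXP4 farthest to the FH-DHX36 side.

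FOXK1 was the member with most FH-DHX36 signal. It is a broadly expressed factor that recruits chromatin repressors and acts on autophagy and glycolysis genes. FH-DHX36-E335A gave 32 clusters with 4601 reads and an NXPM of 432, and FH-DHX36 gave 19 clusters with 3142 reads and an NXPM of 1196. All of these reads lay in its 3′UTR. Scaled reads were 2.77 times higher in FH-DHX36 (2.64 to 2.90), and its NXPM ranked 92 and 44 among all genes. The FOXK1 gene spans chr7:4721926-4811073 on the plus strand, and the last of its 9 exons holds a 3′UTR of 8978 nt. That 3′UTR held 30 G-run matches, the printed one with runs of at least 3 G among them. All 184 annotated 3′UTRs within 10% of its length had at least 1 match, so that having a match is not particular to FOXK1.

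FOXK2, the paralog with the same partners, gave 22 clusters, 2445 reads and an NXPM of 24.5 in FH-DHX36-E335A. In FH-DHX36 it gave 8 clusters, 438 reads and an NXPM of 17.8. Its FH-DHX36-E335A reads were 2066 3′UTR, 102 CDS, 229 intron and 48 other-annotation reads, and its FH-DHX36 reads were 267 3′UTR and 171 intron reads. Scaled reads were 1.38 times higher in FH-DHX36-E335A (1.24 to 1.53), the opposite side from FOXK1. The annotated span of FOXK2, chr17:80477589-80602538, overlaps WDR45B on the other strand, a gene with 5521 and 10026 reads of its own.

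The FOXO genes were bound in 3 of 4 members in both PAR-CLIPs, and all 3 had more scaled reads in FH-DHX36. FOXO3, a factor of stress resistance and longevity, had 8 clusters with 1134 reads and an NXPM of 72.4 in FH-DHX36-E335A and 7 clusters with 757 reads and an NXPM of 196 in FH-DHX36. The difference in scaled reads was 2.70-fold (2.46 to 2.97). Its 5′UTR, 292 nt with 4 G-run matches, carried 2 clusters with 321 reads in each PAR-CLIP, the largest 5′UTR signal of the family in both. The 3′UTR held 813 reads in FH-DHX36-E335A and 361 in FH-DHX36, where another 75 were intronic.

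FOXO4, an X-linked factor of the same branch, had 9 clusters with 1234 reads and an NXPM of 103 in FH-DHX36-E335A. FH-DHX36 gave 4 clusters with 512 reads and an NXPM of 173, all in the 3′UTR, and scaled reads were 1.68 times higher there (1.51 to 1.86). A 5′UTR signal of 170 reads was listed in FH-DHX36-E335A alone. Both UTRs of FOXO4 are rich in G runs, with 6 matches in 678 nt of 5′UTR and 8 in 1448 nt of 3′UTR, and 3 of each with runs of at least 3 G.

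FOXO1, a mediator of insulin action on glucose production, had 5 clusters with 712 reads and an NXPM of 30.2 in FH-DHX36-E335A. In FH-DHX36 it had 2 clusters with 207 reads and an NXPM of 35.5, and all its reads were in the 3′UTR. Its scaled reads were 1.18 times higher in FH-DHX36, with an interval that reached 1.00 (1.00 to 1.38). FOXO6, the fourth FOXO gene, had no cluster and no annotated UTR in the reference.

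FOXM1, the activator of G2 and mitosis genes, was the most abundant bound member, with a recovered abundance of 21.9. FH-DHX36-E335A gave 12 clusters with 3494 reads and an NXPM of 18.2, but 2824 of these reads (80.8%) were of other annotation. The rest were 353 3′UTR, 288 CDS and 29 5′UTR reads. FH-DHX36 gave 5 clusters with 388 reads and an NXPM of 8.21, from 362 3′UTR and 26 5′UTR reads and none of other annotation. Scaled over all reads, FOXM1 was 2.22 times higher in FH-DHX36-E335A (2.00 to 2.48). In its 3′UTR alone the NXPM, scaled to the 3′UTR reads of each PAR-CLIP, went the other way, from 3.46 in FH-DHX36-E335A to 19.9 in FH-DHX36. The direction for FOXM1 therefore depended on the category counted. The annotated span of FOXM1, on the minus strand, overlaps RHNO1 and ITFG2 on the other strand. RHNO1 had 394 and 64 reads of its own and ITFG2 83 and 0. What the other-annotation reads of FOXM1 are was not resolved.

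Among the FOXP genes, repressors that act in lymphocytes, lung and brain, FOXP1, FOXP2 and FOXP4 had clusters in both PAR-CLIPs and FOXP3 had none. Their signals were small. FOXP1 had 4 clusters with 161 reads in FH-DHX36-E335A, all in the 3′UTR, and 1 intron cluster with 27 reads in FH-DHX36. FOXP2, known for its part in speech and language, had 49 3′UTR and 22 intron reads in FH-DHX36-E335A and 31 intron reads in FH-DHX36. FOXP4 had 9 reads in FH-DHX36-E335A and 18 in FH-DHX36, each in 1 3′UTR cluster. Scaled reads of FOXP4 were 8.10 times higher in FH-DHX36, with a wide interval (3.46 to 20.5). Its 3′UTR of 3448 nt held 14 matches, more per kb than that of FOXK1, with an NXPM of 0.542 and 4.39.

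FOXN2, FOXN3 and FOXN4 of the FOXN branch had clusters. FOXN3, a repressor of cell cycle genes, had 6 clusters with 391 reads and an NXPM of 50.2 in FH-DHX36-E335A and 1 cluster with 61 reads and an NXPM of 31.7 in FH-DHX36. FOXN2 had 9 clusters with 578 reads (490 3′UTR and 88 CDS) in FH-DHX36-E335A and no cluster in FH-DHX36. Its 3′UTR of 3852 nt held no G-run match, whereas 90.2% of the 868 annotated 3′UTRs of like length had one. FOXN4, a factor of retinal progenitors, had 35 3′UTR reads in FH-DHX36-E335A and 112 intron reads in FH-DHX36. This was the largest difference of the family, 13.0-fold higher in FH-DHX36 (8.80 to 19.5), and it compared reads of different annotation.

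FOXJ3 and FOXJ2 are broadly expressed, unlike FOXJ1 of motile cilia, which had no cluster. FOXJ3 had 17 clusters with 2239 reads and an NXPM of 39.9 in FH-DHX36-E335A, from 2051 3′UTR and 188 CDS reads. FH-DHX36 gave 3 clusters with 114 reads and an NXPM of 8.24, of which 38 reads were in the 3′UTR and 76 in introns. Scaled reads were 4.85 times higher in FH-DHX36-E335A (4.02 to 5.90). FOXJ2 had 5 3′UTR clusters with 404 reads and an NXPM of 49.1 in FH-DHX36-E335A alone.

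The other 26 forkhead genes, most of them developmental regulators, had clusters in 12 members in FH-DHX36-E335A and in 4 in FH-DHX36. FOXC1, required for the anterior eye and the cardiovascular system, is a gene of 1 exon at chr6:1610150-1614132 on the plus strand. FH-DHX36-E335A gave 14 clusters with 5412 reads and an NXPM of 86.5, and FH-DHX36 gave 6 clusters with 258 reads and an NXPM of 16.7. Scaled reads were 5.18 times higher in FH-DHX36-E335A (4.57 to 5.89). The location also differed, with 4065 3′UTR, 522 CDS and 825 other-annotation reads in FH-DHX36-E335A, but 189 CDS and 69 3′UTR reads in FH-DHX36.

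FOXD1, a marker of kidney stroma, was the other member with much CDS signal. Its 13 clusters in FH-DHX36-E335A held 817 reads (351 CDS, 385 3′UTR and 81 of other annotation) with an NXPM of 11.3. In FH-DHX36, 3 clusters held 254 reads, all in the CDS, with an NXPM of 14.3. Its CDS was 75.1% G and C and held 10 G-run matches. FOXC1 and FOXD1 were the 2 members with CDS clusters in both PAR-CLIPs. FOXD2 had 183 reads in 4 clusters and 29 reads in 1 cluster, all in the 3′UTR.

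FOXA1, a pioneer factor of endoderm, breast and prostate, had no category in common between the PAR-CLIPs except other annotation. FH-DHX36-E335A gave 7 clusters with 910 reads, of which 478 were intronic, 177 in the 3′UTR and 255 of other annotation. FH-DHX36 gave 2 clusters with 79 reads, 25 in the CDS and 54 of other annotation. Scaled reads were 2.84 times higher in FH-DHX36-E335A (2.26 to 3.63).

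The other 8 developmental members had clusters in FH-DHX36-E335A alone. FOXF2, a factor of gut and palate mesenchyme, led them with 6 clusters, 1054 reads and an NXPM of 16.5, made up of 766 3′UTR, 104 CDS and 184 intron reads. FOXB1 had 5 clusters with 589 reads, all of other annotation, so it does not count as bound in an annotated exon category. FOXQ1 had 126 reads, FOXA3 44 and FOXE1 23, all in the 3′UTR, while FOXD3, of the neural crest, had 76 reads in the CDS and FOXI3 30 of other annotation.

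Depth limits how the 10 members of FH-DHX36-E335A alone can be read. The table lists 0 reads for a gene without a cluster, so their FH-DHX36 values are the absence of a call and not a measured level. Scaled to the FH-DHX36 total, the FH-DHX36-E335A reads of FOXF2 would be 260, those of FOXB1 145, FOXN2 143 and FOXJ2 99.7. FOXE1 would have 5.68 reads, below 6, the smallest number listed for any gene with a cluster in FH-DHX36, and FOXI3 7.41. A gap between the PAR-CLIPs was not detectable at this depth for FOXE1, and FOXI3 lay close above the same limit. For the others, whose reads were spread over up to 9 clusters, the part of depth was not tested.

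Among the 16 members with clusters in both, scaled reads were higher in FH-DHX36-E335A for 8 and higher in FH-DHX36 for 8. The median log2 ratio of FH-DHX36-E335A over FH-DHX36 was 0.11 (-3.70 to 2.37), and that of all genes was 0.12. Other scalings moved the members' median to -0.22 or -0.0051, so it has no direction. At least 2-fold higher in FH-DHX36-E335A were 4 members, FOXC1, FOXJ3, FOXA1 and FOXM1, where 28.6% of all genes with clusters in both passed this fold. At least 2-fold higher in FH-DHX36 were another 4, FOXN4, FOXP4, FOXK1 and FOXO3, where 24.8% of all genes did. The family as a whole thus stood on neither side, and single members stood on both. FOXP1 was the member whose interval spanned 1.

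**Figure D3:**
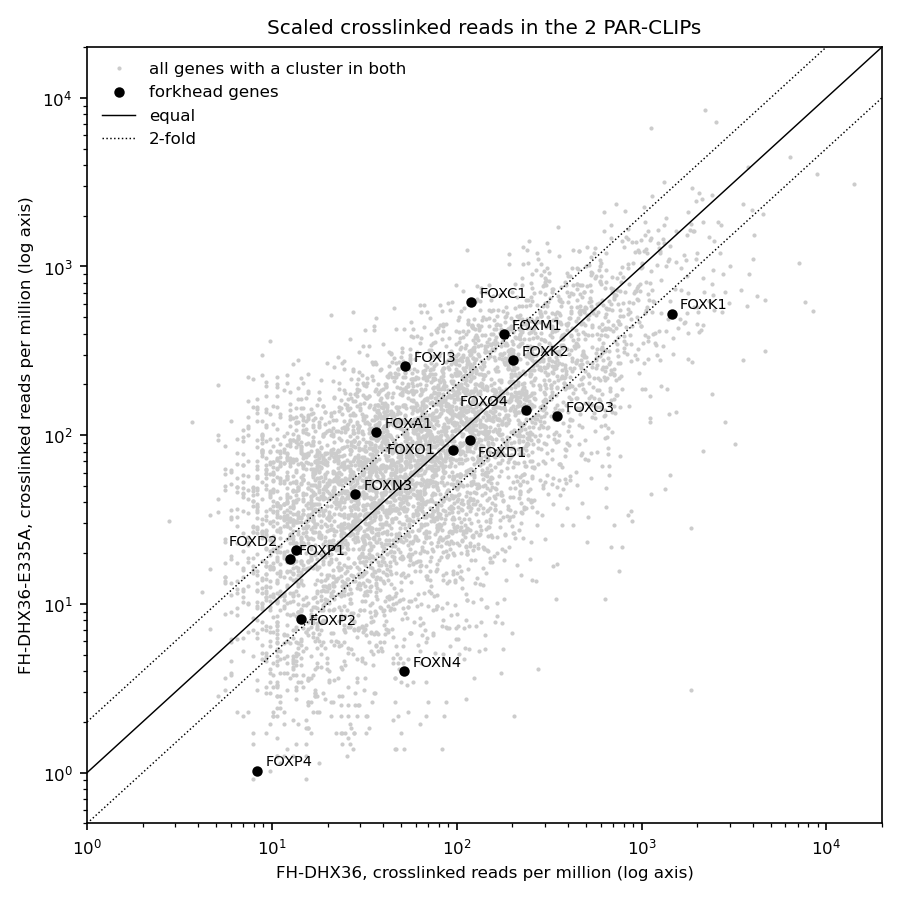
Scaled crosslinked reads (RPM) in FH-DHX36 (x axis) and FH-DHX36-E335A (y axis), both log scales, for the 5669 genes that both PAR-CLIPs list with clusters (grey) and the 16 forkhead genes among them (black, named). The solid line marks equal values and the dotted lines 2-fold differences, and 4 forkhead genes lie beyond each dotted line.

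Of the 16 members, 11 had 3′UTR clusters in both PAR-CLIPs and 5 had them in FH-DHX36-E335A and not in FH-DHX36. The same share over all genes is not given here. Of the 8889 protein-coding genes with a cluster in either PAR-CLIP, 6817 had a 3′UTR cluster in FH-DHX36-E335A and 2966 in FH-DHX36. The read total was 4.05 times larger in FH-DHX36-E335A, and the part of depth was not tested. The 5 members with 3′UTR clusters in FH-DHX36-E335A only were FOXA1, FOXD1, FOXP1, FOXP2 and FOXN4. In the last 3 the FH-DHX36 reads were intronic, in FOXD1 they were in the CDS, and in FOXA1 they were in the CDS and of other annotation.

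The median 3′UTR length followed the order of the binding groups, as a description without a test. It was 3132.5 nt for the 16 members with clusters in both PAR-CLIPs, 1461.5 nt for the 10 of FH-DHX36-E335A alone and 958 nt for those without a cluster, beside 1105 nt for all genes. Protein-coding genes also had longer 3′UTRs when bound, 1549 nt with a cluster in either PAR-CLIP and 737.5 nt without one. G-run matches did not follow the order of the member groups. They numbered 1.98 per kb of 3′UTR for members with clusters in both, 1.15 for FH-DHX36-E335A alone and 2.97 for members without a cluster. Protein-coding genes had 1.63 with a cluster in either PAR-CLIP and 1.83 without one. At least 1 match was present in 15 of 16, 6 of 10 and 12 of 16 annotated 3′UTRs of the 3 member groups, and in 65.3% over all genes. FOXL1 and FOXI2, with 12 and 11 matches in the 3′UTR, had no cluster, while FOXN2, FOXF2 and FOXP2 had 3′UTR clusters without a match. The AU-rich pentamer ATTTA occurred 1.76, 2.18 and 1.46 times per kb of 3′UTR in the same 3 groups and 2.23 times over all genes.

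**Figure D4:**
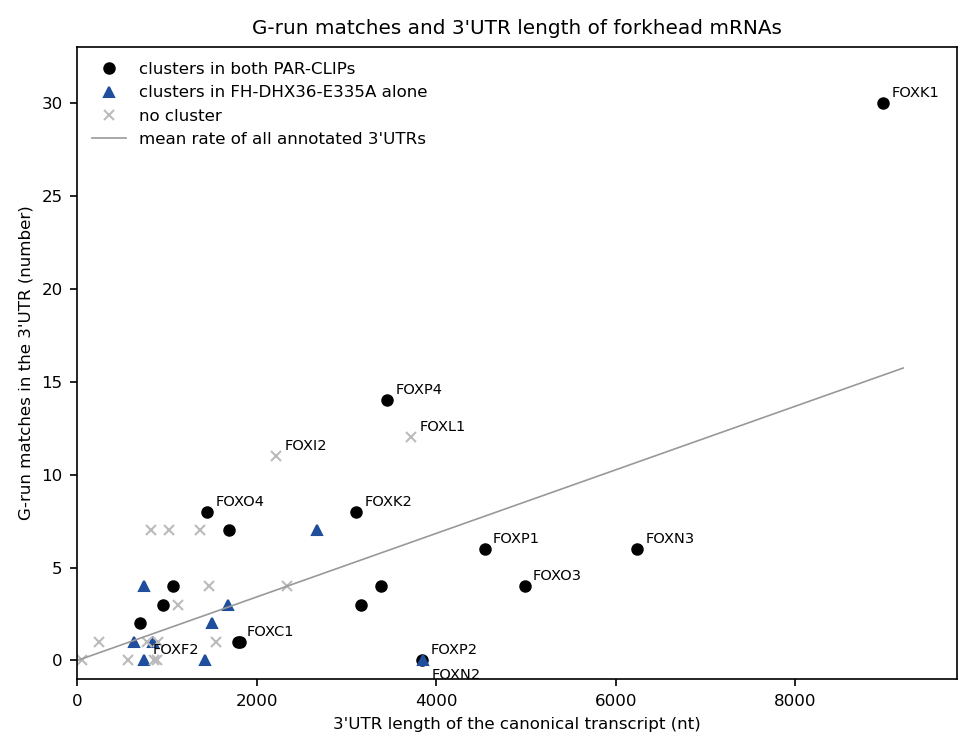
Number of G-run matches in the 3′UTR (y axis) against 3′UTR length of the canonical transcript (x axis, nt) for 41 of the forkhead genes with an annotated 3′UTR, marked by binding in both PAR-CLIPs (circles), FH-DHX36-E335A alone (triangles) or neither (crosses), with the mean rate of all annotated 3′UTRs as a line. FOXK1 stands alone with 30 matches in 8978 nt, and FOXN2 and FOXP2 lie at 0 with 3852 and 3839 nt.

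Next to all genes, the family had more G-run matches per kb in the 5′UTR, CDS and 3′UTR, most clearly in the CDS. The HOX and SOX genes also had more in the CDS. Over all 44 genes, bound or not, G-run matches numbered 5.91 per kb of 5′UTR, 3.72 per kb of CDS and 2.05 per kb of 3′UTR, where all genes had 5.29, 2.52 and 1.70. HOX genes had 4.98, 3.70 and 2.48, and SOX genes 5.96, 4.32 and 1.68. The 26 members with clusters had 5.61 per kb of 5′UTR, below the 6.29 of protein-coding genes with a cluster in either PAR-CLIP. With runs of at least 3 G, 38.5% and 8.84% of these 5′UTRs had a match. Over all 44 genes, 26.2% of the 5′UTRs and 20.5% of the coding sequences had such a match, beside 6.91% and 6.29% of all genes. The 3′UTRs had one in 21.4%, beside 14.5%. For HOX genes the 5′UTR, CDS and 3′UTR shares were 17.9%, 2.56% and 28.2%, and for SOX genes 15.8%, 21.1% and 31.6%. The median GC content of the forkhead CDS was 67.0%, beside 52.7% for all genes, 62.4% for HOX genes and 67.9% for SOX genes. Matches per kb were densest in the 5′UTR, while the 3′UTR held most of the members' exonic reads in both PAR-CLIPs. Protein-coding genes with a cluster in either PAR-CLIP were alike. They had 6.29 matches per kb of 5′UTR and 1.63 of 3′UTR, and 72.1% and 51.6% of their exonic reads lay in the 3′UTR. The regions differ in length and cluster positions were not used, so whether reads lay at matches was not tested. A single exon was annotated for 15 members (34.1%), beside 4.80% of all genes, 42.1% of SOX genes and 0% of HOX genes. Of these 15 members, 7 had clusters in FH-DHX36-E335A and 3 in FH-DHX36. Of the 29 members with several exons, 19 and 13 had clusters. Among protein-coding genes, too, a single exon was rarer with a cluster in either PAR-CLIP (1.74%) than without one (7.79%).

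Genes that act with the forkhead factors were counted from lists chosen with earlier results of these data known. The lists were not matched to other genes by RNA abundance. Of their 55 genes, 50 had clusters in FH-DHX36-E335A and 42 in FH-DHX36. The shares to read these and the next counts against are 34.5% and 22.4% of all genes and 47.7% and 31.0% of protein-coding genes, and with 3 to 18 genes a list nothing is called particular to 1 list. Of the 18 regulators of FOXO, 17 and 15 had clusters. The ubiquitin ligase gene MDM2 had 4264 and 517 reads. FOXO targets had clusters in 13 and 11 of 14 genes, with 5749 and 548 reads on SOD2, a mitochondrial superoxide dismutase, 4011 and 1623 on SESN3, a sestrin, and 3798 and 265 on CDKN1B, a cell cycle inhibitor. The MuvB and MYBL2 partners of FOXM1 had clusters in 5 and 2 of 6 genes. RBBP4 had 1270 and 55 reads, LIN9 957 and 0, and MYBL2 884 and 554.

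FOXM1 targets had clusters in 8 and 7 of 8 genes, where 47.7% and 31.0% of protein-coding genes did, led by BIRC5 (survivin) with 5469 and 1151 reads, the phosphatase gene CDC25B with 2144 and 797 and the kinetochore gene CENPF with 1665 and 758. FOXK partners had clusters in 5 and 5 of 6 genes, with 1405 and 472 reads on OGT, 1155 and 277 on SIN3A and 594 and 138 on BAP1. Of the 3 FOXP partners, the corepressor genes CTBP1 and CTBP2 had 875 and 470 and 280 and 118 reads, and GATAD2B had none. The median log2 ratio over all lists was 0.10, close to the 0.12 of all genes.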

How the data were processed

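The authors ran PAR-CLIP on HEK293 lines with tagged DHX36, wild type or E335A, in 2 replicates each. Per the methods of the study, reads were mapped to hg19, clusters were called with PARalyzer within PARpipe and annotated with GENCODE v19. The deposited table gives, per gene, counts of clusters and of crosslinked reads without normalization, in all and by category, and NXPM, a score deposited by the authors. NXPM equalled crosslinked reads scaled to 1000000 (RPM, within the same category for the regional values) divided by RNA abundance plus 0.001, within 0.1% for the members, and the abundance was recovered from it. Per the submitters' processing notes, bcl2fastq 2.17.1 was used. No column belonged to another series.

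Members were taken by name. The members and gene lists were chosen with earlier results of these data known. Members with a cluster are named, and of each gene list the 3 genes with most FH-DHX36-E335A reads, except for 3 genes not reported here, which stay in the counts and medians. With 1 value per cell line no test was run. Shares carry 95% Wilson intervals, and ratios of scaled reads carry exact conditional binomial intervals. Reads without molecular identifiers are not independent molecules, so intervals cover counting error only. Categories are those of the deposited columns, and "other annotation" is the total minus them. Lengths, exons and G-run matches (4 runs, loops of 1 to 7 nt, no overlap between matches) are from canonical transcripts of the GENCODE 44 annotation lifted to GRCh37, which is hg19, with exon pieces that touch after lift-over joined. Strand use in the authors' counting was not given in the sources used here. Python 3.11.15, pandas 2.3.3, NumPy 2.4.6, SciPy 1.17.1 and matplotlib 3.10.9 were used, and the counting steps were tested on simulated data. The alternatives tried were other definitions of a bound gene, denominators, scalings, abundance offsets, transcripts and G-run lengths.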

Additional observations from a re-analysis of the deposited data

How the results depend on the processing

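No paired analysis was possible because the table has 1 value per cell line, although the labels number 2 replicates in each line. For the same reason no replicate could be left out, and no value here has a replicate check. The count of FH-DHX36 members fell from 16 to 10 with at least 2 clusters and to 10 with at least 100 reads. The FH-DHX36-E335A count fell from 26 to 21 and to 19 under the same definitions. Shares over all genes under these definitions are not given here. Restricting the background to protein-coding genes raised it to 47.7% and 31.0%. The 3′UTR share became 71.0% (FH-DHX36-E335A) and 78.8% (FH-DHX36) over all reads, 78.0% and 79.6% by clusters, and 70.2% for FH-DHX36 without FOXK1. The median NXPM became 16.0 and 13.7 with abundance plus 1, and 24.5 and 14.3 at an abundance of at least 1. The median log2 ratio became -0.22 with exonic scaling (13 genes), -0.0051 when centred on all genes and -0.24 with at least 100 reads in both (9 genes). G-run matches per kb of the members with clusters went from 5.61 to 5.32 (5′UTR) and stayed at 1.78 (3′UTR) when the longest transcript was used. With runs of at least 3 G they were 1.26, 0.143 and 0.150 in the 5′UTR, CDS and 3′UTR.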
